A study of Mus musculus with 15 samples.

Results

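The 10 genes described here, Per1, Per2, Per3, Dbp, Tef, Hlf, Nr1d1, Nr1d2, Ciart and Bhlhe41, code for the Period proteins, the PAR bZIP and REV-ERB transcription factors and a pair of further repressors of the circadian clock. They were taken as 10 of the 56980 genes in a table of RNA abundance from bulk RNA-seq, and all 10 were measured in both tissues. They were put forward because of their values in hearts after treatment with dasatinib and quercetin (D + Q), so the values in hearts are given as a description, with no test. All mice were DBA/2J-mdx, a strain that lacks dystrophin and serves as a model of Duchenne muscular dystrophy, and no healthy control was measured. Mice received D + Q, a kinase inhibitor given with a plant flavonoid to remove senescent cells, or vehicle, 2 times per week by gavage. The tibialis anterior (TA), a fast muscle of the lower leg, came from 4 D + Q–treated mice, all male, and 4 vehicle-treated mice, males in replicates 1 and 3 and females in replicates 2 and 4, treated for 2 months from 3 months of age and collected at 5 months. Hearts came from other animals, 3 D + Q–treated mice, labelled female, female and male, and 4 vehicle-treated mice, males in replicates 1 and 4 and females in replicates 2 and 3, treated for 4 months from 12 months of age and collected at 16 months. Tissue, age and length of treatment therefore differed together and cannot be told apart. Mice were kept under a light/dark cycle, and the hour of tissue collection is not given in the sources used here.

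The circadian clock is a daily loop of transcription that runs in almost every cell, muscle and heart included. BMAL1 with CLOCK or NPAS2 binds E-boxes and activates the Per, Cry, Nr1d and PAR bZIP genes. The RNAs of the Per, Nr1d and PAR bZIP genes peak many hours away from Bmal1 itself. PER with CRY then represses BMAL1 and CLOCK, REV-ERB proteins repress Bmal1 against the ROR activators, and the PAR bZIP factors act through D-boxes against the repressor NFIL3.

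Promoters of the members were searched for these elements because the loop works through them. RefSeq promoters of 300 bases, from 250 before to 50 after a start site (build GRCm38.p6, used only for these sequences), were found for 9 of the 10 genes, as 11 promoters, and there was no entry for Per2. Both strands were searched. The E-box CACGTG was in promoters of 4 of the 9 genes, Per1, Tef, Ciart and Bhlhe41, or in 5 of the 11 promoters, against 7.15% of the 32851 promoters in the table. A D-box, as TTATGTAA, TTACGTAA or TTATATAA, was in 1 of the 9 genes, Per3, against 1.59% of all promoters. The element bound by ROR and REV-ERB was in none of the 11 and in 0.435% of all promoters. The cAMP element TGACGTCA was in Hlf alone among the 9 genes, 9 bases before the start, and in 1.79% of all promoters. A match in these letters describes the sequence and does not show that a factor binds there. The 250 bases before the start of the promoters richest in E-boxes and D-boxes and of the first promoter of Per1 are printed below, 5′ to 3′ in the direction of the gene, with the matches in capitals. Ciart lies on the minus strand at chr3:95882229-95882478 and has E-boxes that begin 116, 58 and 44 bases before the start. Per3 lies on the minus strand at chr4:151044666-151044915 and has D-boxes that begin 205 and 158 bases before the start. The first promoter of Per1, on the plus strand at chr11:69098699-69098948, has 1 E-box, which begins 166 bases before the start.
Ciart: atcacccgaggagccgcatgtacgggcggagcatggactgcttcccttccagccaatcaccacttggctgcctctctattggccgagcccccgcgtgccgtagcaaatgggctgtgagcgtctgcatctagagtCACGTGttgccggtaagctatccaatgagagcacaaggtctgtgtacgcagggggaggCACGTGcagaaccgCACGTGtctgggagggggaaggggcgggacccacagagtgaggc
Per3: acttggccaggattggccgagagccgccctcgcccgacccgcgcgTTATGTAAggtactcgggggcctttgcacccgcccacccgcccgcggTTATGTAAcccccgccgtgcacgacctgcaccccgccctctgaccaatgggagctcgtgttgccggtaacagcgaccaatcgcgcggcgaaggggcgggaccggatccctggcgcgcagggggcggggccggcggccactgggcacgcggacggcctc
Per1: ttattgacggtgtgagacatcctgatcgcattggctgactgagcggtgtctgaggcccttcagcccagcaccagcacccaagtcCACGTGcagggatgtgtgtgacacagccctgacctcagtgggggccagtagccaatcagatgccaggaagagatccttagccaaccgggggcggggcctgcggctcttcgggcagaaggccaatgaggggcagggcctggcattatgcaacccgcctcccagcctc

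Values are TPM, a share of all transcripts corrected for gene length and summing to the same total in each of the 15 libraries, so they keep no record of depth. A library had 21830 to 25378 genes above 0. In hearts the groups did not overlap, with 22579 to 22818 genes above 0 after D + Q and 24089 to 25378 after vehicle. The 10 most abundant genes held 45.4% to 47.3% of the total in D + Q hearts and 50.1% to 50.7% in vehicle hearts. In TA the gene numbers overlapped, 21830 to 24146 and 23956 to 24393. The part of this difference in the results for hearts was not tested. The heart D + Q library labelled male, replicate 3, held 47.2 TPM of the female-specific RNA Xist and at most 0.0279 TPM of a Y-linked gene, which goes against its label, so the values in hearts are also given without it. Heart muscle genes summed to 13880.5 TPM or more in every heart, and fast skeletal muscle genes to 20173 TPM or more in every TA. In hearts, markers of other parts of the organ moved with treatment. The summed TPM of the 5 atrial genes (Myl7, Myl4, Sln, Nppa and Bmp10) was 382 to 427 after D + Q and 864 to 4260 after vehicle, and 4 of the 5 had groups that did not overlap. The 5 red-cell genes summed to between 26.8 and 122 TPM against between 346 and 1231 TPM, and the groups overlapped for none of the 5. The 3 ventricular genes summed to between 11848 and 12497 TPM against between 8390 and 10455 TPM. The 3 fibroblast genes summed to 337 to 394 TPM against 411 to 608 TPM, and the 5 heart muscle genes to 17103 to 18229 TPM against 13880.5 to 15254 TPM. The 6 fast skeletal muscle genes, near 0 in hearts, summed to 53.0 TPM in D + Q replicate 2 and to at most 3.11 TPM in the other hearts. No atrial, red-cell or ventricular gene was at 0 in all hearts, and the part of these markers in the results for hearts was not tested. In TA, the sums of all 10 marker lists overlapped between treatments.

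In hearts, all 10 members were lower in each D + Q–treated mouse than in each vehicle-treated mouse, a pattern shown by 5.57% of the 16132 genes tested and the one for which the members were chosen. The difference was largest for Ciart and Dbp and smallest for Nr1d1. In TA, none of the 10 members separated the groups, beside 0.264% of the 16298 genes tested that did so with D + Q higher and 1.25% with D + Q lower, and none passed the test. The plot of TPM by mouse shows both tissues.

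**Figure D1:**
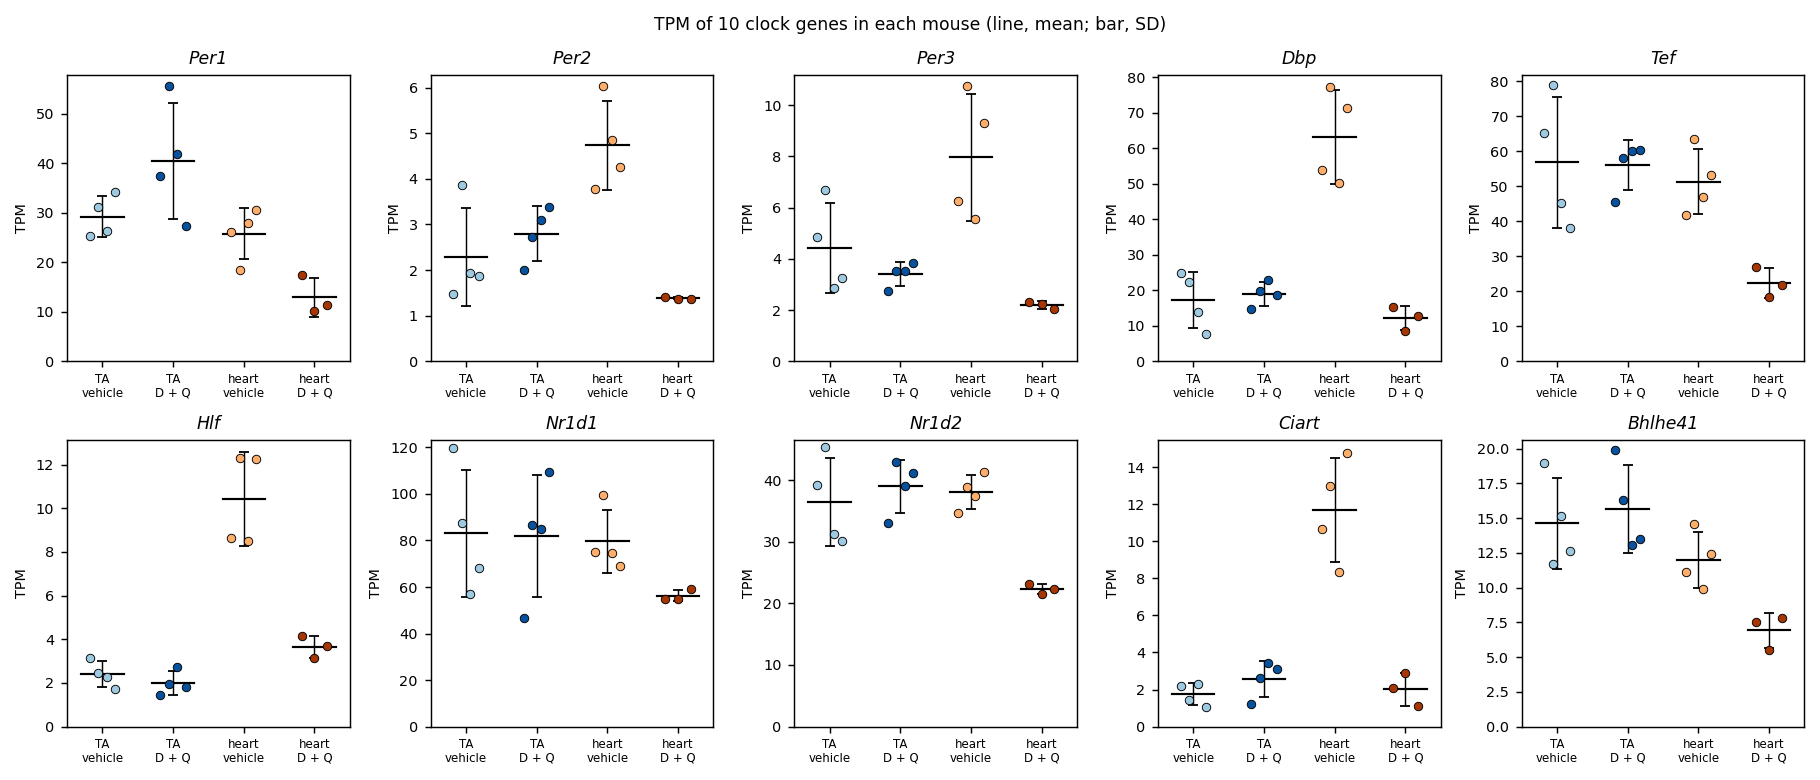
TPM (linear axis from 0) of the 10 members in each mouse of the 4 groups; points are mice, horizontal lines are means and bars are SD. The 3 D + Q hearts sit below the 4 vehicle hearts in every panel, as for Dbp, at most 15.4 TPM against at least 50.2 TPM, while the TA groups overlap in every panel.

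The Period genes code for the repressors that, with CRY proteins, close the loop. Per1 (chr11:68986035-69002300 of GRCm39, plus strand), which light, glucocorticoids and cAMP also induce directly, had 26.1, 18.5, 28.0 and 30.6 TPM in vehicle hearts (replicates 1 to 4) and 17.4, 10.1 and 11.3 TPM in D + Q hearts (replicates 1 to 3). The highest D + Q heart, replicate 1, came within 1.11 TPM of the lowest vehicle heart, replicate 2. The means were 25.8 ± 5.21 (SD, n = 4) and 12.9 ± 3.90 TPM (SD, n = 3), a 1.99-fold difference. All 10 members are protein-coding genes, and positions of genes are on GRCm39.

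Per2 (chr1:91343700-91387069, minus strand), which the rhythm depends on together with Per1, had 3.78, 6.04, 4.84 and 4.26 TPM in vehicle hearts and 1.41, 1.37 and 1.37 TPM in D + Q hearts. The D + Q hearts were almost equal to each other, with an SD of 0.0221 TPM, and the gap to the vehicle hearts was wide. Per3 (chr4:151081373-151129140, minus strand), which is largely dispensable for the rhythm in mice and carries the D-boxes shown above, had 6.25, 10.8, 5.55 and 9.29 TPM in vehicle hearts and 2.31, 2.23 and 2.02 TPM in D + Q hearts. Its vehicle hearts fell into a higher pair, replicates 2 and 4, and a lower pair, and both pairs lay above all D + Q hearts. The vehicle means of Per2 and Per3 were 3.42-fold and 3.64-fold the D + Q means.

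Dbp, Tef and Hlf code for the PAR bZIP activators, which carry the rhythm to genes of metabolism and detoxification. Dbp (chr7:45354512-45359627, plus strand), whose RNA swings widely over the day in most tissues, had 53.9, 77.3, 50.2 and 71.4 TPM in vehicle hearts and 15.4, 8.42 and 12.8 TPM in D + Q hearts. The highest D + Q heart, replicate 1, remained far below the lowest vehicle heart, replicate 3, and the ratio of means was 5.19.

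Tef (chr15:81686622-81711064, plus strand) had 41.8, 63.5, 46.8 and 53.1 TPM in vehicle hearts and 27.0, 18.3 and 21.8 TPM in D + Q hearts. Hlf (chr11:90227221-90281761, minus strand) had 8.65, 12.3, 8.49 and 12.3 TPM in vehicle hearts and 4.13, 3.12 and 3.69 TPM in D + Q hearts. For both genes, as for Dbp, vehicle replicates 2 and 4 were the highest of the hearts and D + Q replicate 2 was the lowest. The ratios of means were 2.29 for Tef and 2.86 for Hlf.

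Nr1d1 and Nr1d2 code for REV-ERBα and REV-ERBβ, the heme-binding nuclear receptors that repress Bmal1. Nr1d1 (chr11:98658752-98666188, minus strand) had 74.8, 99.8, 74.6 and 69.1 TPM in vehicle hearts and 54.7, 55.0 and 59.1 TPM in D + Q hearts. This was the narrowest separation by ratio of means, 1.41. Nr1d1 shares 52.3% of its exon bases with Thra, a gene on the opposite strand that had between 29.97 and 33.2 TPM in vehicle hearts and between 32.0 and 38.98 TPM in D + Q hearts. Whether the reads were assigned by strand is not given in the sources used here, so reads from the shared bases cannot be told apart.

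Nr1d2 (chr14:4230545-4266624, plus strand), which shares no exon bases with another annotated gene, had 34.7, 38.8, 37.5 and 41.3 TPM in vehicle hearts and 23.2, 21.5 and 22.4 TPM in D + Q hearts. Both groups were tight, with coefficients of variation of 7.33% and 3.64%, and the ratio of means was 1.70.

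Ciart, also called CHRONO, codes for a repressor that binds BMAL1, and Bhlhe41, also called DEC2, for one that competes at E-boxes. Ciart (chr3:95785815-95789991, minus strand) had 10.7, 13.0, 8.33 and 14.8 TPM in vehicle hearts and 2.07, 2.86 and 1.099 TPM in D + Q hearts. The ratio of means, 5.82, was the largest of the 10 members, and the promoter of this gene is the one printed above with 3 E-boxes. The promoter of Dbp, with a ratio of 5.19, held none of the elements searched. Per1, Tef and Bhlhe41, which also have E-boxes, had ratios of 1.99, 2.29 and 1.73. A link between E-boxes and these ratios was not tested. Bhlhe41 (chr6:145803969-145811430, minus strand) had 11.1, 14.6, 9.87 and 12.4 TPM in vehicle hearts and 7.50, 5.49 and 7.81 TPM in D + Q hearts, a ratio of means of 1.73. Among genes with a value, the largest overlap with a gene on the opposite strand covers 9.6% of the exon bases of Ciart, 22.1% of those of Bhlhe41 and 15.5% of those of Dbp. The overlapping gene reached 2.79 TPM at Ciart, 0.381 TPM at Bhlhe41 and 10.8 TPM (Sphk2) at Dbp.

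On the log2(TPM + 0.5) scale, with labelled sex in the model, the D + Q minus vehicle difference in hearts ran from -2.35 (SE 0.28) for Ciart and -2.34 (SE 0.23) for Dbp to -0.50 (SE 0.12) for Nr1d1. All 10 differences were negative, beside 50.5% of all genes tested, and the median over the members was -1.29, beside -0.0025 over all genes. This scale understates the change of genes with low TPM such as Per2. Without D + Q replicate 3, whose sex label does not match, the differences ran from -2.40 for Dbp to -0.65 for Nr1d1, with -1.89 for Ciart and -0.76 for Per1. With a score of the atrial genes in place of sex, the differences kept their sign but shrank by more than 1.5 times for Per2 to -0.61 (SE 0.43), for Tef to -0.57 (SE 0.51) and for Nr1d1 to -0.17 (SE 0.39), while those of Dbp and Ciart were -2.16 (SE 0.73) and -2.27 (SE 0.91). That score correlated with treatment at -0.951 over the 7 hearts, and in this fit the median of all genes was 0.31. As the tissue was measured in bulk, fewer cells of a type and less RNA per cell cannot be told apart.

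**Figure D2:**
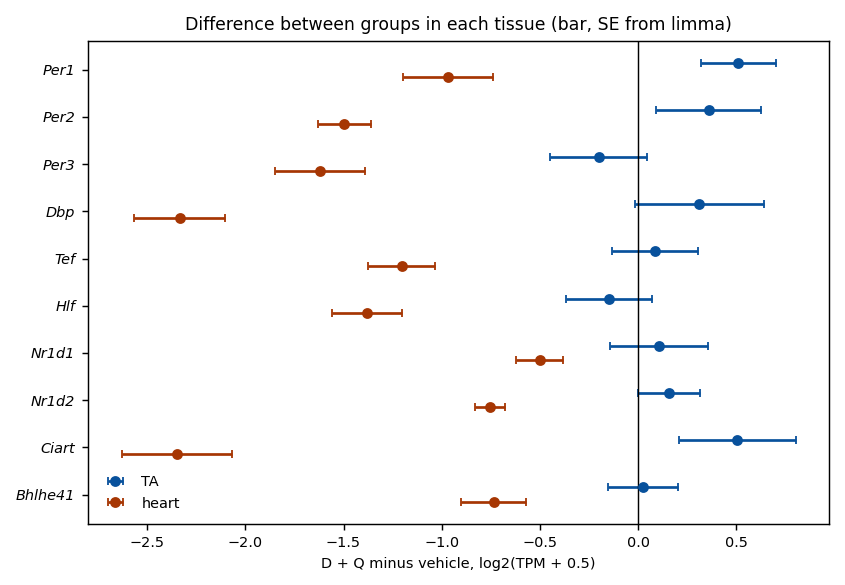
Difference between D + Q and vehicle on the log2(TPM + 0.5) scale (x axis) for each member (y axis) in TA (blue) and heart (brown); points are limma estimates and bars are SE. Every heart point lies left of 0, from -2.35 to -0.50, while the TA points lie between -0.20 and 0.51, and the heart values are those the members were chosen on.

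In TA, whose values did not choose the members, limma called 0 of the 10 members, beside 0% of all 16298 genes in either direction, and all 10 adjusted p-values were 0.999. At an unadjusted p under 0.05 and a log2 difference above 0.5, 1 member was higher in D + Q–treated TA, beside 0.491% of all genes, and 0 members were lower, beside 1.72%. The member was Per1. It had 37.4, 55.6, 41.8 and 27.4 TPM in D + Q–treated TA (replicates 1 to 4) and 25.3, 31.1, 26.3 and 34.2 TPM in vehicle-treated TA. Replicates 1 to 3 of the D + Q group lay above every vehicle mouse and replicate 4 among them, so the groups overlapped. The log2 difference was 0.51 (SE 0.19, 95% interval 0.08 to 0.94, limma adjusted p = 0.999). It lay on both sides of the 0.5 of this rule when 1 mouse was left out, from 0.34 without D + Q replicate 2 to 0.65 without D + Q replicate 4, and was 0.43 with no covariate or a replicate block.

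The log2 difference in TA was positive for 8 members and negative for Per3 and Hlf, whereas 66.4% of all genes tested had a negative one. The median was 0.13 over the members and -0.07 over all genes tested. The number of positive differences went down to 5 when D + Q replicate 3, vehicle replicate 3 or vehicle replicate 4 was left out. Per2 had 1.99, 2.71, 3.09 and 3.38 TPM with D + Q and 1.47, 3.86, 1.93 and 1.88 TPM with vehicle, and the highest mouse of both groups was vehicle replicate 2. Per3 had 2.73, 3.52, 3.53 and 3.84 TPM with D + Q and 4.84, 6.70, 2.87 and 3.24 TPM with vehicle. D + Q replicate 1 was the lowest of the 8 mice, and vehicle replicates 1 and 2 lay above all D + Q mice.

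Ciart had the next largest difference after Per1, 0.50 (SE 0.30, 95% interval -0.15 to 1.16), from 1.21, 2.62, 3.43 and 3.09 TPM with D + Q and 2.17, 1.46, 2.32 and 1.08 TPM with vehicle. D + Q replicate 1 lay with the vehicle mice and the other 3 above them. The difference was 0.04 without D + Q replicate 3 and 0.78 without vehicle replicate 3. With labelled sex in place of the surrogate variable it was 0.10. For Dbp, TA held 14.8, 19.9, 22.9 and 18.6 TPM with D + Q and 25.0, 22.3, 13.9 and 7.61 TPM with vehicle, a spread of the vehicle mice that took in the whole D + Q group.

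The 95% interval of the Dbp difference in TA was -0.42 to 1.04, that of Tef -0.40 to 0.57 and that of Hlf -0.64 to 0.34. Nr1d1, with 46.5, 86.8, 85.1 and 109.6 TPM with D + Q and 119.6, 87.3, 57.0 and 68.1 TPM with vehicle, had an interval of -0.45 to 0.66, and Nr1d2, between 33.0 and 42.9 TPM with D + Q and between 30.04 and 45.3 TPM with vehicle, one of -0.19 to 0.50. For Bhlhe41 the interval was -0.37 to 0.42. The difference between the tissues was not tested, because the heart values chose the members.

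Across the 4 groups, Ciart, Dbp and Hlf were higher in every vehicle heart than in any of the other 11 libraries. Their vehicle heart means were 6.65-fold (Ciart), 3.67-fold (Dbp) and 4.34-fold (Hlf) those of vehicle TA. For Ciart and Dbp, D + Q hearts overlapped vehicle TA, and the 3 lower groups could not be ordered beyond their spread. Hlf was next highest in D + Q hearts, from 3.12 to 4.13 TPM, which overlapped vehicle TA at 1.71 to 3.16 TPM.

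Per2 and Per3 were also highest in vehicle hearts, at 2.07-fold and 1.80-fold the vehicle TA mean, and for Per2 the vehicle hearts lay above the D + Q–treated TA, with 3.78 TPM as the lowest against 3.38 TPM as the highest, but overlapped vehicle TA, where replicate 2 had 3.86 TPM. Vehicle TA, next in order for Per3, overlapped vehicle hearts. Tef, Nr1d1, Nr1d2 and Bhlhe41 had similar levels in both TA groups and in vehicle hearts, and neighbouring groups overlapped. Per1 had means of 40.6 TPM in D + Q–treated TA, 29.2 TPM in vehicle TA and 25.8 TPM in vehicle hearts, and neighbouring groups overlapped here too. Vehicle TA and vehicle heart means of Nr1d1 were 83.0 ± 27.4 and 79.6 ± 13.7 TPM (SD, n = 4 each). D + Q hearts had the lowest mean of the 4 groups for 8 members, and for 6 of them (Per1, Per2, Per3, Tef, Nr1d2 and Bhlhe41) every D + Q heart was below all 12 other libraries. The lowest mean was that of vehicle TA for Ciart and that of D + Q–treated TA for Hlf.

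Mice of one group also differed from each other, and here the members moved partly together. Over the 15 mice, with each value set against the mean of its own group, the median Pearson r over the 45 pairs of members was 0.37, and 19 pairs were above 0.5, or 42.2%, beside a median of 0.23 and 20.9% of all pairs of the 14914 genes tested in both tissues. The closest pair was Dbp and Tef at 0.91, followed by Tef and Nr1d2 at 0.89 and Dbp and Hlf at 0.86. Per3 also went with Tef (0.85) and Nr1d2 (0.83). Per1 stood apart, with r between -0.30 (Nr1d1) and 0.11 (Nr1d2) to the other 9 members, and so did Bhlhe41, from -0.48 (Per2) to 0.36 (Dbp). In the 8 TA alone and in the 7 hearts alone, 21 of the 45 pairs were above 0.5, beside 30.0% and 27.0% of all pairs. All these correlations describe 15 mice that share libraries across all genes, and carry no test.

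**Figure D3:**
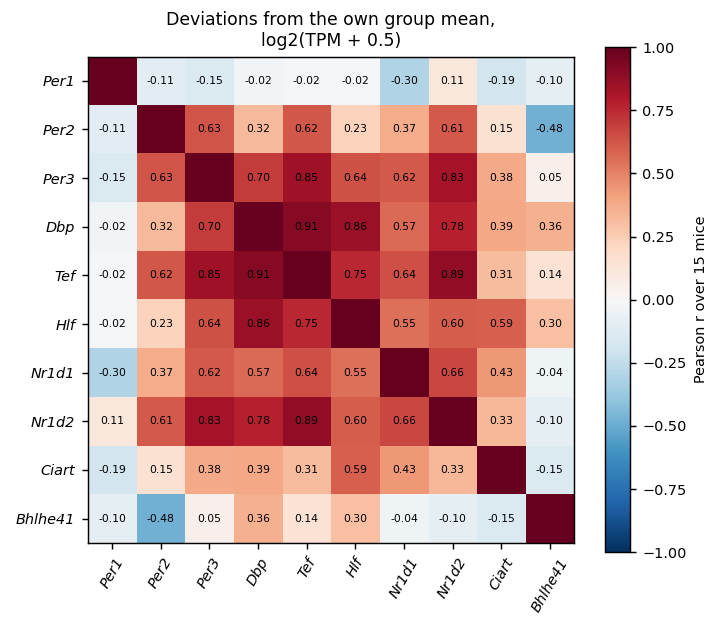
Pearson r (colour, with the value in each cell) between members over 15 mice, for deviations of log2(TPM + 0.5) from the mean of the mouse's own group. Dbp, Tef, Hlf, Per3, Nr1d1 and Nr1d2 form a block with r from 0.55 to 0.91, and Per1 and Bhlhe41 have no r above 0.36.

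Single mice carried these deviations. In vehicle hearts, replicate 2 was the highest of its group for 7 members and replicate 4 for the other 3. Replicate 3 was the lowest for 5 and replicate 1 for 3. In D + Q–treated TA, replicate 1 was the lowest of its group for 8 of the 10 members, while Per1 lay between the others and Bhlhe41 was highest. In vehicle TA, replicates 1 and 2 were each highest for 4 members and replicate 4 lowest for 5.

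Among 7775 other genes with a mean of at least 5 TPM in both tissues, those most like the mean deviation of the members were Gm47015, a long noncoding RNA (r = 0.92), Krba1 (0.89) and Mapk12, which codes for the p38γ kinase of muscle (0.88). Those least like it were Ell2 (-0.85), an elongation factor, Aff4 (-0.80), which works in the same complex, and Rgcc (-0.77). None of the 6 was called in either tissue, with limma adjusted p-values of 0.342 or more in hearts and 0.999 in TA.

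Bmal1, the activator at the top of the loop, took the opposite course to the members in hearts. It had 2.41, 2.03, 3.15 and 1.35 TPM in vehicle hearts and 9.47, 10.2 and 8.55 TPM in D + Q hearts. The D + Q hearts came close to TA, which held 9.96 to 12.3 TPM with D + Q and 11.8 to 13.5 TPM with vehicle, and the vehicle hearts lay below all other libraries. Of the 60 other clock-related genes tested in hearts, limma called only Bmal1. Over all genes, 0.105% were called higher and 0.211% lower. The log2 difference of Bmal1 was 1.85 (SE 0.20, limma adjusted p = 0.0284). The lists of these genes were chosen with earlier results of these data known, so the call is not independent of that choice. The call was lost, with the direction kept, in 5 of the 7 fits that each left out 1 heart, all but those without vehicle replicate 1 or 3 (limma adjusted p up to 0.176, without D + Q replicate 3). It was also lost with no filter on low values, no trend, a replicate block, sex read from expression or the atrial score (limma adjusted p from 0.0554 to 0.724). The log2 difference stayed between 1.70 and 2.21 in these fits and between 1.72 and 2.00 in those that left out 1 heart.

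The ratio of Dbp to Bmal1 combines both sides. It was 22.4, 38.2, 15.9 and 52.8 in vehicle hearts and 1.62, 0.825 and 1.49 in D + Q hearts. In TA it was between 1.48 and 1.93 with D + Q and between 0.562 and 1.87 with vehicle, so the D + Q hearts lay within the range of TA and the vehicle hearts far above it. The ratio of Nr1d1 to Bmal1 ran from 23.7 to 51.1 in vehicle hearts and from 5.39 to 6.91 in D + Q hearts, and from 4.66 to 9.09 over both TA groups. Within groups, the median r of a member with Bmal1 was -0.50 over the 7 hearts, negative for 8 of the 10 members, and 0.23 over the 8 TA, negative for 1. The median r over all pairs of genes was 0.21 in hearts and 0.27 in TA.

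**Figure D4:**
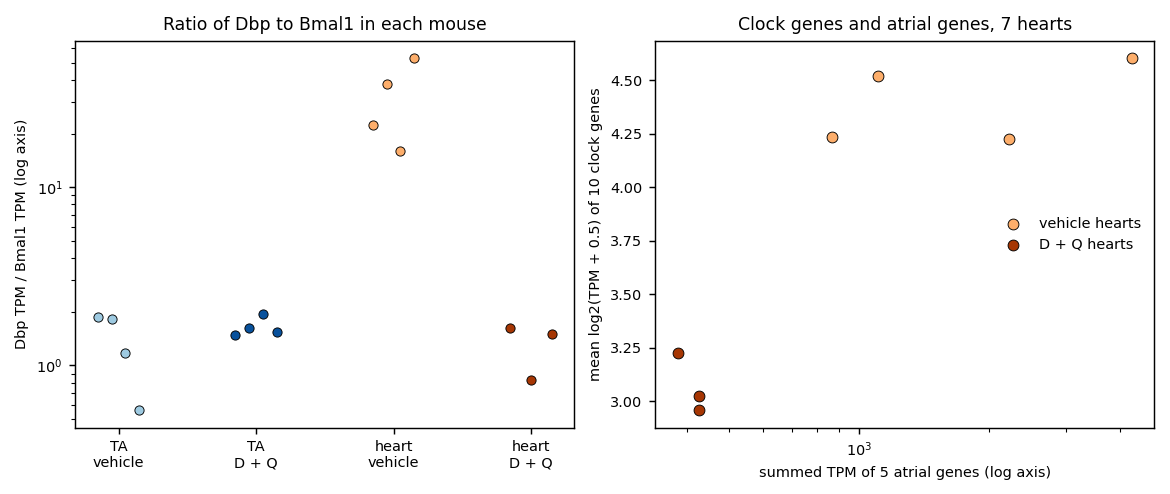
Left, ratio of Dbp to Bmal1 TPM (log axis) in each mouse of the 4 groups; right, mean log2(TPM + 0.5) of the 10 members against the summed TPM of 5 atrial genes (log axis) in the 7 hearts. The ratio is 15.9 to 52.8 in vehicle hearts and at most 1.93 elsewhere, and among vehicle hearts the members averaged 4.52 in replicate 4, with 1104 TPM of atrial genes, and 4.22 in replicate 3, with 2221 TPM.

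The plot of members against atrial genes shows how both measures lay in single hearts. Vehicle replicate 1, with the fewest atrial transcripts of its group (864 TPM), had a mean member level of 4.23 on the log2 scale, and replicate 2, with the most (4260 TPM), had 4.60. The D + Q hearts had 3.23, 2.96 and 3.02 at 382, 427 and 427 TPM.

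The remaining core clock genes were measured beside the members. Clock, the partner of BMAL1, had 13.8, 12.9, 16.0 and 11.4 TPM in vehicle hearts and 19.6, 21.1 and 20.4 TPM in D + Q hearts. Npas2, which can replace CLOCK, had 0.581 to 1.68 TPM against 2.46 to 4.09 TPM, and Nfil3, the repressor that opposes the PAR bZIP factors, 2.05 to 3.58 TPM against 4.65 to 8.18 TPM. The D + Q hearts were higher in each mouse for these 3 genes, beside 9.63% of all genes, but none passed the test (limma adjusted p = 0.0934 for Clock, 0.105 for Npas2 and 0.103 for Nfil3).

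The cryptochromes, partners of PER, differed from each other. Cry2 had 7.72 to 12.6 TPM in vehicle hearts and 5.69 to 5.89 TPM in D + Q hearts, with a log2 difference of -0.69 (SE 0.15, limma adjusted p = 0.109), which was -0.0075 (SE 0.46) with the atrial score in place of sex. Cry1 had 2.25 to 2.60 TPM and 1.96 to 2.81 TPM, with overlapping groups. Bhlhe40, the paralog of Bhlhe41, had 33.5 to 41.5 TPM in vehicle hearts and 22.6 to 29.4 TPM in D + Q hearts, and did not pass (adjusted p = 0.0891). Rora, which competes with REV-ERB, had 10.3 to 12.7 TPM and 9.08 to 10.2 TPM, with every D + Q heart below the vehicle hearts, and did not pass either, with a log2 difference of -0.23 (SE 0.07).

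**Figure D5:**
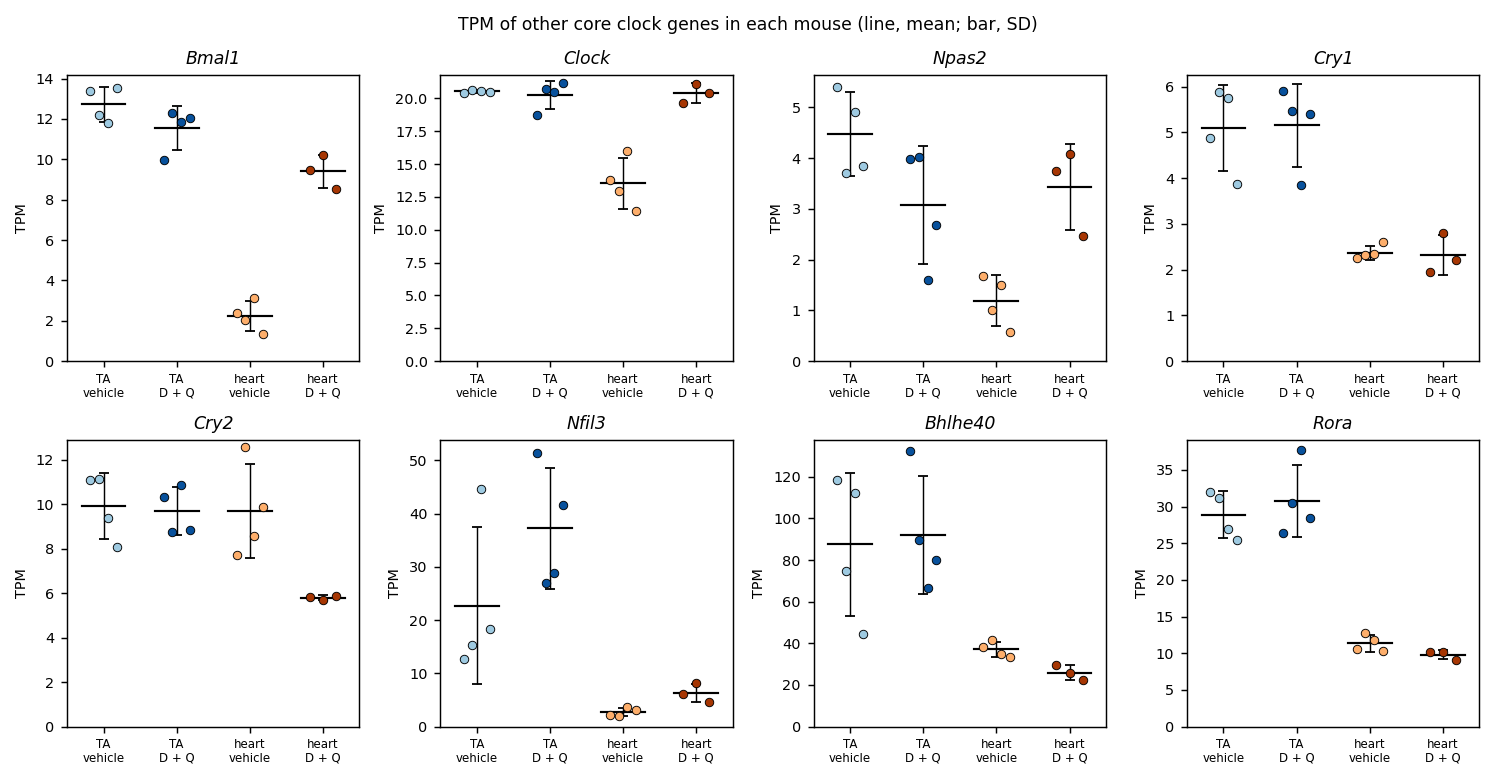
TPM (linear axis from 0) of 8 further core clock genes in each mouse of the 4 groups; points are mice, lines are means and bars are SD. Bmal1, Clock, Npas2 and Nfil3 are higher in all D + Q hearts than in the vehicle hearts (Bmal1 at least 8.55 against at most 3.15 TPM), Cry2, Bhlhe40 and Rora are lower, and the TA groups overlap.

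In TA these genes had overlapping groups. Clock ran from 18.8 to 21.2 TPM with D + Q and from 20.4 to 20.7 TPM with vehicle, Cry1 from 3.84 to 5.91 and from 3.87 to 5.88 TPM, and Cry2 from 8.75 to 10.9 and from 8.09 to 11.1 TPM. Bhlhe40 had 66.8 to 132.3 TPM with D + Q and 44.5 to 118.2 TPM with vehicle, and Rora 26.4 to 37.7 and 25.4 to 32.0 TPM. None of the 58 other clock-related genes tested in TA passed (limma adjusted p 0.999 for each). At an unadjusted p under 0.05 and a log2 difference beyond 0.5, 3 were higher in D + Q–treated TA, namely Nfil3 (0.61, SE 0.26), Fkbp5 (0.67, SE 0.24) and Crem (0.51, SE 0.17), and 1 was lower, Npas2 (-0.65, SE 0.23), beside 0.491% and 1.72% of all genes. Nfil3 was at 1.01 without vehicle replicate 3 and Npas2 at -0.43 without D + Q replicate 3. Fkbp5 belongs to 10 glucocorticoid-responsive genes, 9 of which had a positive difference. Crem belongs to 8 CREB and immediate early genes, 3 of which had a positive difference. Of all genes tested, 66.4% had a negative one.

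In hearts the same rule gave 5 of the 60 genes higher and 12 lower, beside 1.30% and 3.79% of all genes. By list, 3 of 5 activators and ROR receptors (Bmal1, Clock and Npas2) were higher and none was lower. Of the 4 other repressors, Nfil3 was higher and Cry2 and Bhlhe40 were lower. None of the 8 kinases and ligases that act on PER and CRY and none of the 6 REV-ERB corepressor genes met the rule. Of 14 output genes, 4 were lower (Wee1, Usp2, Pfkfb3 and Tcap), and of 10 glucocorticoid-responsive genes, Cdkn1a was higher and Mt2 lower. Among 8 CREB and immediate early genes, Fos, Junb, Egr1 and Ier2 were lower, and among 5 temperature-responsive genes, Hspa1b was lower. Apart from Bmal1, none of these passed the adjusted threshold, and the smallest of their adjusted p-values was 0.0810, for Tcap.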

How the data were processed

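Bulk RNA-seq was measured in TA muscles and hearts of vehicle-treated and D + Q–treated mice, grouped by the sample labels. The authors trimmed reads with Trim Galore 0.6.10, used Salmon 1.10.3 and tximport with the GRCm39 reference to obtain gene-level values, and deposited TPM, covering 56980 genes. TPM keeps no depth, so precision comes only from the spread between mice, which may be partly technical, and the study's count-based test was not run.

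Within a tissue, genes that reached 0.5 TPM in 3 or more mice were tested on log2(TPM + 0.5) with limma 3.58.1 in R 4.3.3 (trended eBayes, Benjamini-Hochberg), with 1 surrogate variable in TA and labelled sex in heart. Calls had an adjusted p under 0.05 and an absolute log2 difference above 0.5. On simulated data, noise was drawn for each gene on its own, with no hidden factor and no effect of sex. The 200 changed genes had a mean log2 level above 1. The TA test recovered 77 at a log2 change of 1 and 183 at 2, with 5 and 11 false calls. The heart test recovered 144 and 195, with 7 and 6 false calls. Noise shared between genes was left out, so these counts do not give the recovery in these data. Identifiers were matched to GENCODE M39 symbols (56236 of 56980), and no libraries were identical.

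The members and all gene lists were chosen with earlier results of these data known. The genes named are all members, list genes called in either tissue, 8 further core clock genes set by the rule (1 other that it set is not reported here), and the 3 genes most and the 3 least like the members within groups. List genes named at unadjusted p-values were named after their values were seen. Alternatives were other pseudocounts, filters, scaling and covariates, no trend, a replicate block and leaving out each mouse.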

Additional observations from a re-analysis of the deposited data

Results flagged for a closer look

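Tef in D + Q–treated TA replicate 1 (45.4 TPM) lay apart from the other 3 mice of its group (58.0 to 60.3 TPM), with a gap of 0.849 of the range against a critical value of 0.829 for 4 mice. It was 1 of 33 groups examined over the 10 members and Bmal1, and chance marks about 1 in 20 groups. The same mouse was the lowest of its group for 8 of the 10 members.

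Bmal1 was below the vehicle mean in all 4 D + Q–treated TA, by a mean of -1.18 TPM, and above it in all 3 D + Q hearts, by a mean of 7.18 TPM. The difference between the tissues was not tested.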

How the results depend on the processing

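In hearts the differences of the 10 members kept their sign in every fit. In TA no member and no other clock-related gene was called in any fit. Each of these fits tested at least 14215 genes and called at most 1 higher and at most 1 lower. The differences of Nr1d1 and Bhlhe41 in TA changed sign with labelled sex or males only, to -0.077 and -0.13, and that of Nr1d1 to -0.028 with no covariate or a replicate block. In the same 2 fits, labelled sex and males only, those of Ciart and Dbp fell to 0.10 and 0.0096. Those of Per1 and Per2 rose to 0.60 and 0.57. All 4 D + Q–treated TA were male, against 2 of the 4 vehicle-treated TA. Labelled sex and males only therefore give the same difference by design and are not separate checks. The same holds in TA for no covariate and a replicate block, because each replicate number occurs once in both groups. Leaving out each mouse, differences in TA ran from -0.24 to 0.52 for Dbp, from -0.15 to 0.23 for Tef, from -0.066 to 0.28 for Nr1d1 and from -0.048 to 0.16 for Bhlhe41, and positive differences from 5 to 8 members. The number of other clock-related genes called higher in hearts went from 1 to 0 with 5 settings. These were no filter, no trend, the replicate block, sex read from expression and the atrial score. Without single hearts the number ran from 0 to 4 (4 without vehicle replicate 3, namely Bmal1, Clock, Alas1 and Cdkn1a). Alas1 was listed as an output gene and Cdkn1a as a glucocorticoid-responsive gene. The number of other clock-related genes called lower went from 0 to 1 with no covariate (Tcap). Without single hearts it also went from 0 to 1 (Bhlhe40, without vehicle replicate 3). With the atrial score, Rora in hearts changed sign, to 0.21, Cry2 was at -0.0075 and Nfil3 at 1.76. More genes were tested with no filter, and the cause was not tested for the other changes.

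Replicate numbers are only names here, since each library came from another animal, and no pairing was used. Deviations of same-numbered mice correlated at a mean of -0.12 in TA and 0.02 in hearts, and 0 of the 4 D + Q–treated TA and 1 of the 3 D + Q hearts correlated best with the own number. Depth is unknown, so the counting error of low values such as those of Per2 cannot be given.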
